A study of Mus musculus with 10 samples.

Results

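The strain difference in liver transcripts before any special feeding was read from 2 of the 10 arrays of the series, the DBA/2J (D2) array and the C57BL/6J (B6) array of week 0. Both are female mice of inbred strains, and each array held pooled liver RNA of 5 mice. The remaining 8 arrays came from mice of the same strains after 1, 4, 12 and 21 weeks on a diet rich in fat and cholesterol, with 1 pool of D2 and 1 pool of B6 at each week. They served to ask which of the gaps present at the start were met again in fed mice. Pooling averages the animals, so the spread between mice is not known, and age advances with the weeks of feeding.

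D2 and B6 are among the most studied pairs of mouse strains. B6 readily gains weight and develops fatty streaks in the aorta on diets of this kind, and the strains carry different alleles at many liver genes. In the liver, large inherited differences are known for enzymes that clear drugs and steroids. Other liver genes follow the state of the animal. Interferon-induced genes answer to viral and bacterial signals, acute phase genes answer to the cytokines of inflammation, and genes of lipid synthesis and of the circadian clock follow feeding and the time of day.

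Signals are intensities on a linear scale that were quantile normalised over the 10 arrays, and a gap is the D2 minus B6 difference of log2(signal + 13.7). The value added, 13.7, is the median of all normalised signals, and it holds back the large folds that dim probe sets would otherwise give, so folds of dim genes are understated. A gap of 1 on this scale was called 2-fold. The week 0 arrays have no replicate, so a gap at week 0 is a value with no test. The fed arrays were not used to call a week 0 gap, but they entered the normalisation, the choice of 1 probe set per gene and the filter on mean signal. They were tested in limma with week as a block and Benjamini-Hochberg adjustment over all 11087 genes kept. Saa1, Saa2, Lcn2, Onecut1 and Arhgef40 are described because their mean fed gap was among the most opposite, so their fed gaps were part of that choice. Each array is a separate pool, and the weeks stand in for replicates there, so that changes over feeding time count as spread.

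At week 0 the livers of the strains resembled each other closely, with a Pearson correlation of log2 values of 0.967 across the 11087 genes kept. In the fed pairs it was 0.929 to 0.964. The trimmed mean signal of the arrays before normalisation ranged from 56.2 to 89.1 and was lowest in the week 0 arrays. Hepatocyte markers such as albumin (Alb) lay at the top of both arrays, with Alb at 6171 in D2 and 6325 in B6, and none of 12 such markers had a gap. Of 11087 genes, 379 had a 2-fold gap (3.42%), 218 of them higher in D2 (1.97%) and 161 lower in D2 (1.45%).

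Each gap was then followed into the fed pairs. It was said to persist where the mean of the 4 fed gaps was at least 2-fold in the same direction. It was said to shrink where the mean was smaller than 2-fold in either direction, and to reverse where it was at least 2-fold in the opposite direction. Of the 379 gaps, 147 persisted, 230 shrank and 2 reversed. The mean fed gap had the opposite sign in 61 of the 379 genes, the 2 reversals among them. Of the 230 that shrank, 39 still passed the fed test in the direction of week 0. Over all 11087 genes, the mean fed gap was at least 2-fold higher in D2 in 1.16% and lower in 1.96%. Among the 218 genes higher in D2, 78 persisted, 138 shrank and 2 reversed, and among the 161 lower in D2, 69 persisted and 92 shrank. In 84 genes the gap was 2-fold in all 4 fed pairs, which over all genes held for 0.46% in the higher and 0.532% in the lower direction, and in 162 genes it was 2-fold in none of them. The direction was the same in all 4 fed pairs for 229 of the 379 genes (60.4%), against 23% of all genes. A mean fed gap wider than that of week 0 was found in 86 genes. The scatter of the gap before against the gap during feeding shows all 3 outcomes.

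**Figure D1:**
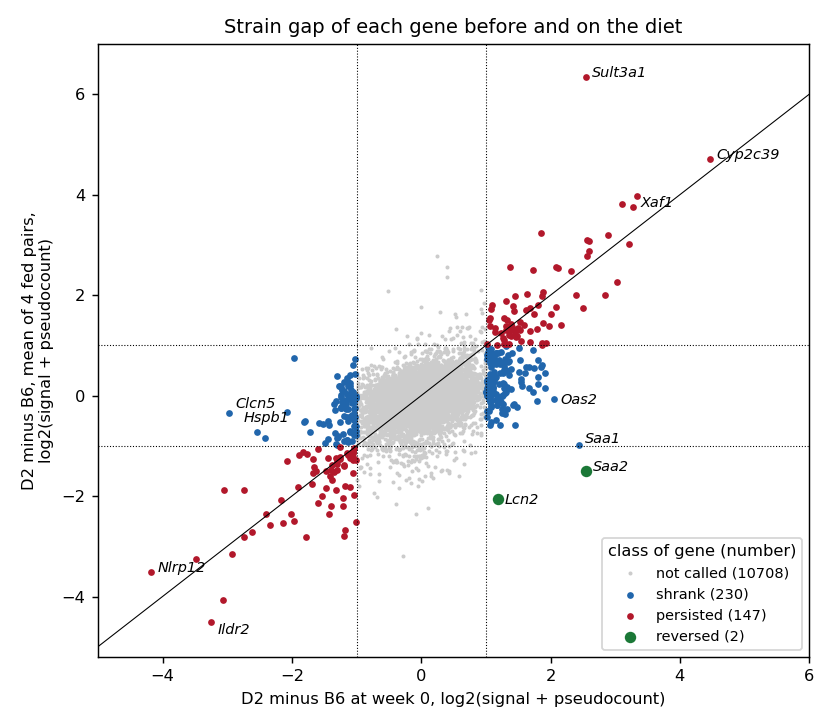
Each point is a gene, with its D2 minus B6 difference at week 0 on the horizontal axis and the mean of its 4 fed differences on the vertical axis, both as log2(signal + 13.7); colours give the class of the gene, dotted lines mark 2-fold and the solid line marks equal gaps. Of the 379 genes with a week 0 gap, 147 lie beyond 2-fold in the same direction, 230 lie between the horizontal dotted lines and 2 lie beyond 2-fold on the opposite side.

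Larger week 0 gaps were more often classed as persisting, which follows in part from the fixed limit of 2-fold. A gap just past that limit counts as shrunk after a small change, while a larger gap must lose more. Of 43 genes with a gap of at least 4-fold, 36 persisted, 6 shrank and 1 reversed, while of 336 genes between 2-fold and 4-fold, 111 persisted, 224 shrank and 1 reversed. In the fed test 728 of 11087 genes passed (6.57%), 349 higher in D2 (3.15%) and 379 lower in D2 (3.42%). At the deposited scale 180 passed as higher and 353 as lower. With 1 pair left out the higher and lower counts were 258 and 246 without week 1, 176 and 220 without week 4, 126 and 126 without week 12, and 127 and 134 without week 21. Of the 379 genes with a week 0 gap, 181 passed in the same direction (47.8%) and 1 in the opposite direction. That gene was Arhgef40, a guanine nucleotide exchange factor (fed gap 0.62 ± 0.13, limma adjusted p = 0.0421, lost without any 1 of the 4 pairs), whose other probe sets had gaps from 0.49 to 1.03 at week 0 where the one used had −1.06. Of the 10708 genes with no week 0 gap, 546 passed (5.10%).

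Genes picked for a large gap in 1 pair lie closer to 0 in other pairs through that choice alone, so the return from week 0 was set beside the return from every other week. At the 4 fed weeks in turn, 4.54%, 8.02%, 3.66% and 4.33% of all genes had a 2-fold gap. Of the week 0 gaps, the shares that were again 2-fold in the same direction were 36.9%, 38.3%, 40.6% and 41.7%. Between fed weeks this share ran from 21.4% to 60.2%. The test of the week 0 gap against the mean fed gap, in limma over all 10 arrays, passed for 0 genes, with 669 at an unadjusted p under 0.05 and a lowest adjusted p of 0.465. It assumes that the lone week 0 pair varies like the fed pairs. In simulated data on 11087 genes this test made 5 false calls. It found 0% of 50 differences of 2-fold and 74% of 50 differences of 4-fold. The simulation gave the week 0 and fed arrays of a gene the same spread, so these shares may not hold for the lone week 0 pools. Sult3a1, described below, had a difference of −3.79 that did not pass (limma adjusted p = 0.817). The count of 0 thus says little about differences of 2-fold or of 4-fold. No gene named here therefore passed a test of a difference between its week 0 gap and its fed gap.

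**Figure D2:**
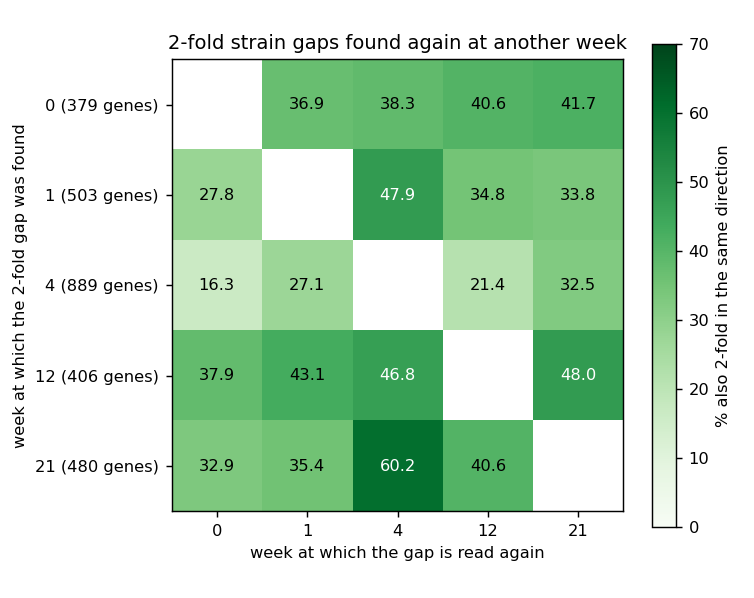
Each cell gives the percent of genes with a 2-fold gap at the week in its row that also had a 2-fold gap in the same direction at the week in its column. Week 0 gaps were found again at 36.9% to 41.7% in the 4 fed weeks, and the lowest share in the plot is the 16.3% of the 889 gaps of week 4 that were found at week 0.

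Several enzymes of drug and steroid clearance had gaps that persisted. Cyp2c39, a cytochrome P450 that hydroxylates retinoic acid, had the largest gap of all genes higher in D2. Its normalised signal was 1951 in D2 at week 0 and 1596, 1564, 1730 and 1714 at weeks 1, 4, 12 and 21, against 75.6 in B6 at week 0 and 42.6, 40.6, 44.6 and 78.0 at the same fed weeks. The strains never overlapped, and the gap was 4.46 at week 0 and 4.71 ± 0.14 over the fed pairs (SE, limma adjusted p = 2.62e-05, n = 4 pairs). Cyp2c38, its neighbour on chromosome 19, had a signal of 1849 in D2 and 449 in B6 at week 0, and a gap of 2.01. Its fed gap was 1.63 ± 0.22 (limma adjusted p = 0.00935), smallest at week 12 with 0.89. Probe sets of such close paralogs can share signal.

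The Cyp3a genes of chromosome 5 went in different directions. Cyp3a44, a form expressed mainly in female liver, had a signal of 770 in D2 and 203 in B6 at week 0, and on the diet 353, 232, 766 and 232 in D2 against 31.8, 18.0, 26.0 and 25.4 in B6. Each strain was highest at week 0, the strains did not overlap on the diet, and the gap was 1.85 at week 0 and 3.23 ± 0.26 on the diet (limma adjusted p = 0.00137). Cyp3a13 was lower in D2, with a signal of 536 in D2 and 1582 in B6 at week 0 and a gap of −1.54, and its fed gap was −2.00 ± 0.12 (limma adjusted p = 0.000376). Cyp2g1, an enzyme better known from the olfactory mucosa, had gaps of 1.78 at week 0 and 1.32 ± 0.11 on the diet (limma adjusted p = 0.00175). Of 32 drug-metabolising cytochrome P450 genes on the list, 6 were at least 2-fold higher in D2 and 1 lower, and 6 of these 7 persisted. That is a gap in 21.9% of the list, against 3.42% of all genes, of whose gaps 38.8% persisted. The median gap of the list was 0.00, against 0.03 over all genes. Outside the list, Cyp2c23, an epoxygenase of arachidonic acid, was lower in D2, with 270 in D2 against 1881 in B6 at week 0 and a gap of −2.74. Its fed gap was −2.81 ± 0.26 (limma adjusted p = 0.00269).

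Among conjugating enzymes, Sult3a1, a sulfotransferase with female-biased expression, had a gap at week 0 that was far wider on the diet. Its signal was 4802 in D2 at week 0 and 2437, 2336, 5812 and 1759 at weeks 1, 4, 12 and 21, against 812 in B6 at week 0 and 0.676, 5.0, 135 and 21.6 at the fed weeks. D2 was above B6 at every week, and B6 was highest before the diet. The gap was 2.54 at week 0 and 7.42, 6.98, 5.29 and 5.65 at the fed weeks, with a fed mean of 6.33 ± 0.35 (limma adjusted p = 0.000285). Its week 0 gap differed from its fed gap at an unadjusted p of 0.00198 and an adjusted p of 0.817. Rsph4a, its neighbour on chromosome 10 and a component of cilia, also had a gap that persisted. Tpmt, the methyltransferase that inactivates thiopurine drugs, had signals of 794 in D2 and 284 in B6 at week 0, a gap of 1.44 and a fed gap of 1.68 ± 0.10 (limma adjusted p = 0.000376). Of 41 conjugating enzymes, 4 were higher in D2, of which 3 persisted, and 0 were lower (9.76% higher, against 1.97% of all genes). Of all gaps 38.8% persisted.

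Genes with sex-biased expression in liver leaned towards D2. Of 26 such genes, 8 were at least 2-fold higher in D2 at week 0 and 1 lower (30.8% and 3.85%, against 1.97% and 1.45% of all genes), 21 had a positive gap, and the median gap was 0.41, against 53.4% positive and a median of 0.03 over all genes. Of the 9 gaps, 6 persisted and 3 shrank, while 38.8% of all gaps persisted. The list includes Cyp3a44, Sult3a1 and Hao2 described here. It was not split by the sex in which its members are higher, so no female or male pattern is read from it. Hao2, a peroxisomal hydroxy acid oxidase, had signals of 669 in D2 and 81.4 in B6 at week 0, and on the diet 249, 566, 1295 and 415 in D2 against 128, 105, 237 and 64.1 in B6. The lowest D2 signal was above the highest B6 signal, and the gaps were 2.84 at week 0 and 2.01 ± 0.26 on the diet (limma adjusted p = 0.00831). The call was lost without the week 12 pair (adjusted p = 0.0503). Elovl3, a fatty acid elongase, had a gap of 1.69 at week 0 and 1.29 ± 0.23 on the diet (limma adjusted p = 0.0241), which was lost without the pair of week 1 (0.0825) or week 12 (0.0637). Its signal was 412 in D2 and 119 in B6 at week 0, and 53.0 to 122 in D2 against 8.18 to 37.5 in B6 on the diet.

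Loci with known inherited differences between these strains were read against the labels. The list was chosen with earlier results of these data known, so its shares are not independent support. Of 11 that were kept, 5 had a gap at week 0 (45.5%, against 3.42% of all genes) and all 5 persisted, against 38.8% of all gaps. The fed test passed for 9 of the 11, against 6.57% of all genes. H2-Ea, an MHC class II chain with a promoter deletion in B6, had a signal of 159 in D2 at week 0 and 330, 180, 290 and 294 on the diet, against 3.54 in B6 at week 0 and 7.66, 5.92, 1.09 and 2.89. B6 lay below the added value of 13.7 in all 5 arrays, and the gaps were 3.33 at week 0 and 3.97 ± 0.19 on the diet (limma adjusted p = 0.000195). Nnt, the mitochondrial transhydrogenase partly deleted in C57BL/6J, had a signal of 1121 in D2 and 461 in B6 and a gap of 1.26, with 1.14 ± 0.12 on the diet (limma adjusted p = 0.00396). Alad, a heme synthesis enzyme duplicated in DBA/2J, had gaps of 1.31 and 1.30 ± 0.13 (limma adjusted p = 0.00297), while its other probe set had 0.06 at week 0. Hc, complement component 5, which carries a null allele in DBA/2J, had a signal of 914 in D2 against 2197 in B6 at week 0 and a gap of −1.25, with −1.26 ± 0.08 on the diet (limma adjusted p = 0.000488). Its 4 fed gaps ranged from −1.36 to −1.09.

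Gpnmb, Klrd1 and Glo1 had gaps under 2-fold at week 0 and passed the fed test. Gpnmb, a transmembrane glycoprotein of macrophages that is truncated in DBA/2J, had signals of 3.80 in D2 and 7.60 in B6 at week 0, a gap of −0.28. Both signals lay below the added 13.7, so the size of that gap is not measured. On the diet the signals were 8.79, 7.34, 4.36 and 12.9 in D2 against 31.8, 428, 90.3 and 752 in B6. The 4 fed B6 pools had the highest signals of the series, and the fed gap was −3.20 ± 0.59 (limma adjusted p = 0.0284), which was lost without the pair of week 4, 12 or 21 (up to 0.0971). Klrd1, a natural killer receptor deleted in DBA/2J, had −0.32 at week 0 and −1.06 ± 0.23 on the diet (limma adjusted p = 0.0454), which was lost without any 1 of the 4 pairs (up to 0.166). Glo1, a glyoxalase duplicated in DBA/2J, had 0.39 at week 0 and 0.90 ± 0.11 on the diet (limma adjusted p = 0.00642), while its other 3 probe sets had gaps from 0.71 to 1.10 at week 0.

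Most of the 12 largest gaps in each direction persisted, and the heat map of these genes by week shows a nearly even colour along most rows. All 12 genes highest in D2 persisted. Cap1, an actin-binding protein, had a signal of 301 in D2 and 22.8 in B6 at week 0 and a gap of 3.11, with 3.81 ± 0.10 on the diet (limma adjusted p = 2.62e-05), and a second probe set gave 3.10 at week 0. Corin, a serine protease that processes natriuretic peptides, had 108 in D2 and 2.91 in B6 and a gap of 2.88, with 3.19 ± 0.17 on the diet (limma adjusted p = 0.000283). Enho, which encodes the secreted peptide adropin, had 600 in D2 and 88.1 in B6 and a gap of 2.59, with 3.08 ± 0.17 on the diet (limma adjusted p = 0.000285). Rassf4, a member of the Ras association family, had a gap of 3.21 and a fed gap of 3.02 ± 0.27 (limma adjusted p = 0.00233). The remaining genes among these 12 were Hddc3, Snrnp25, Ifi202b, Pik3ap1 and Xaf1, beside Cyp2c39, H2-Ea and Hao2. Probe sets disagreed in a pair of them at week 0: a second probe set gave −0.14 for Pik3ap1, a signalling adaptor, and −0.78 for Xaf1, an interferon-induced regulator of apoptosis.

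Of the 12 genes lowest in D2, 9 persisted and 3 shrank. Nlrp12, a cytoplasmic sensor of the NLR family, had signals of 32.5 in D2 and 823 in B6 at week 0, and on the diet 5.05, 7.56, 7.36 and 6.10 in D2 against 217, 77.4, 261 and 481 in B6. D2 lay below B6 at every week, with a gap of −4.18 at week 0 and −3.52 ± 0.36 on the diet (limma adjusted p = 0.00354). Ildr2, a membrane protein mapped as a diabetes modifier between these strains, had 29.6 in D2 and 396 in B6 at week 0 and a gap of −3.24. Its fed gaps of −4.10, −4.49, −4.67 and −4.75 were all wider, with a mean of −4.50 ± 0.13 (limma adjusted p = 2.62e-05). Mndal, of the p200 family of interferon-induced DNA sensors on chromosome 1, had gaps of −3.07 and −4.06 ± 0.23 (limma adjusted p = 0.000285), while Ifi202b of the same family and chromosome had 2.59 and 2.88 ± 0.15 (limma adjusted p = 0.000283). Members of that family are close in sequence. Pdxdc1, a decarboxylase-like protein, had −2.92 and −3.15 ± 0.11 (limma adjusted p = 6.43e-05), yet another of its probe sets gave 4.20 at week 0. Mme, the membrane peptidase neprilysin, had −3.04 at week 0 and −3.50, −1.73, −1.57 and −0.72 on the diet, so that its gap counts as persisting on the mean of −1.88 (limma adjusted p = 0.0425, lost without the pair of week 4 or 12) though it was under 2-fold at week 21.

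**Figure D3:**
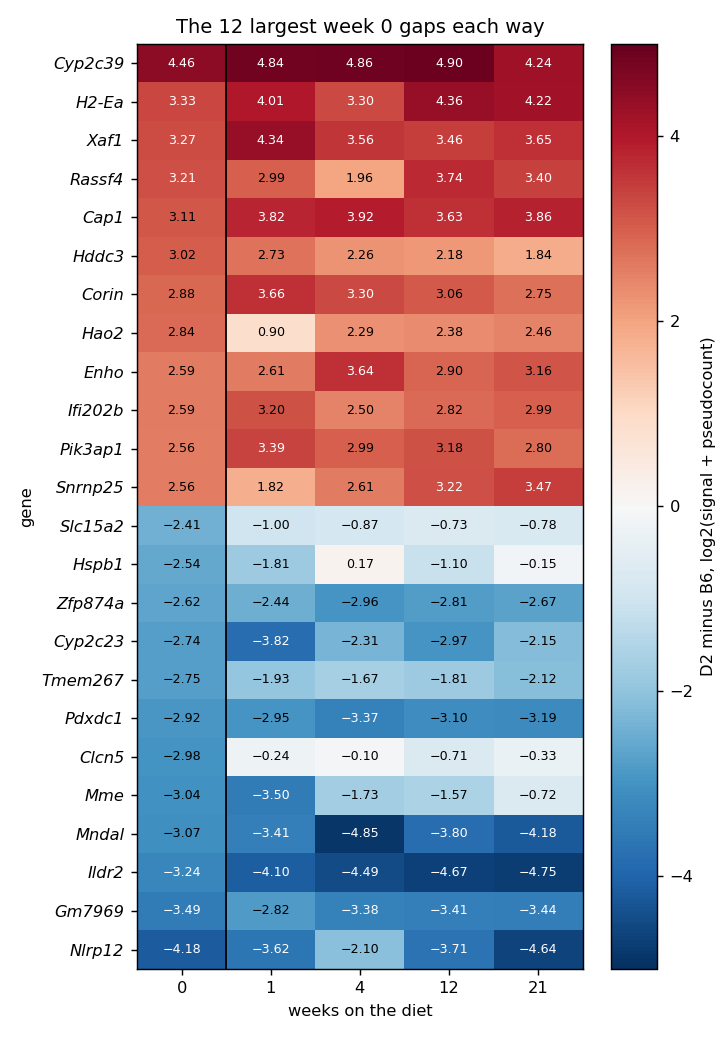
The heat map gives the D2 minus B6 difference of log2(signal + 13.7) at each week for the 12 genes with the largest positive and the 12 with the largest negative gap at week 0; the vertical line separates week 0 from the fed weeks. Clcn5, Hspb1 and Slc15a2 have fed means of −0.35, −0.72 and −0.84, and Mme has −3.50 at week 1 and −0.72 at week 21.

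The 3 of these genes whose gap shrank differed in how far. Clcn5, a chloride and proton exchanger, had a signal of 8.92 in D2 at week 0 and 117, 136, 80.4 and 123 on the diet, against 164 in B6 at week 0 and 142, 147, 141 and 159. The D2 pool of week 0 stood alone among the 10 arrays, the gap was −2.98 at week 0 and −0.35 ± 0.13 on the diet, and a second probe set gave 0.25 at week 0. Hspb1, a small heat shock protein, had 70.1 in D2 and 474 in B6 at week 0 and a gap of −2.54, and fed gaps of −1.81, 0.17, −1.10 and −0.15. Slc15a2, a peptide transporter, had 0.920 in D2 and 64.1 in B6 at week 0 and a gap of −2.41, and its fed gap of −0.84 ± 0.12 still passed (limma adjusted p = 0.0123) but not without the pair of week 12 (0.0508) or week 21 (0.0641).

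Interferon-induced genes were the list with the most gaps that did not last. These genes are switched on when cells sense interferon, and many carry an element near their start sites, the interferon-stimulated response element. It was searched for on both strands as GAAA, any 2 bases, and GAAA again. Of 23 interferon-induced genes kept that had a promoter in the RefSeq tables (GRCm38.p6), 16 held that element between 250 bases before and 50 after the start, against 3.99% of all 27025 genes. Of the 5 of them that had a week 0 gap, 2 held it, Ifit1 and Rsad2, and their promoters are shown for that reason; both gaps shrank. Ifit1 lies at chr19:34640639-34640938 on the plus strand and Rsad2 at chr12:26456403-26456702 on the minus strand. Capitals mark the element, read 5′ to 3′ on the gene's strand, where it appears as its reverse complement.
Ifit1: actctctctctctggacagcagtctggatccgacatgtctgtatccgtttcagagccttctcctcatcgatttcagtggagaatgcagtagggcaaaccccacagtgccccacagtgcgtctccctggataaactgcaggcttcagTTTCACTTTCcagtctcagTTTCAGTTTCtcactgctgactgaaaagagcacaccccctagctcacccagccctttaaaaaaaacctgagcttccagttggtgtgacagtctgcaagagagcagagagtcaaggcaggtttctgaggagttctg
Rsad2: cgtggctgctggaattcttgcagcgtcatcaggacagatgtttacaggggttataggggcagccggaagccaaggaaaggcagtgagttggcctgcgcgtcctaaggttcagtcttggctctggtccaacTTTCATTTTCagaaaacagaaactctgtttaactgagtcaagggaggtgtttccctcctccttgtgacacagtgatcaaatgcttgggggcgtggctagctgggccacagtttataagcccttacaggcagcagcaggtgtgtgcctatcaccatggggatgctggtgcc

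At week 0 the interferon-induced genes lay higher in D2. Of 32 genes, 8 were at least 2-fold higher in D2 (25%, against 1.97% of all genes) and 0 lower (1.45% of all genes). A positive gap was found in 30 (93.8%, against 53.4%), and the median gap was 0.67, against 0.03 over all genes. On the diet the median gap was 0.00, −0.84, 0.43 and 0.32 at weeks 1, 4, 12 and 21. Of the 8 gaps, 1 persisted (Xaf1) and 7 shrank. Of all 379 gaps 60.7% shrank, so with 8 gaps the list is not set apart by this count. The fed test passed for 2 genes higher and 1 lower in D2 (9.38% of the list, against 6.57% of all genes). In D2 the mean of the fed arrays was above the week 0 array in 19 of 32 genes, with a median difference of 0.08, while in B6 this held for 32 of 32 genes with a median difference of 0.80. B6 at week 0 was the lowest of the 5 B6 arrays in 22 of the 32 genes, and D2 at week 0 the lowest of its strain in 10. The same counts were not taken over all genes. The B6 array of week 0 also enters the week 0 gaps, so its low level is not separate support for them.

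Oas2, an antiviral oligoadenylate synthetase, had the largest of the interferon gaps that shrank. Its signal was 54.5 in D2 at week 0 and 41.1, 26.9, 34.8 and 33.5 on the diet, against 2.79 in B6 at week 0 and 43.9, 47.5, 30.4 and 25.4. The B6 pool of week 0 stood apart, and the strains overlapped at the fed weeks. The gap was 2.05 at week 0 and −0.06 ± 0.17 on the diet (limma adjusted p = 0.853), with an unadjusted p of 0.000824 for their difference and an adjusted p of 0.817. Mx1, an antiviral GTPase, had 27.8 in D2 and 3.73 in B6 at week 0, a gap of 1.25 and fed gaps of 0.06, −0.84, 0.43 and 0.35. Ifit1, which binds foreign RNA, had 93.0 in D2 and 32.7 in B6 at week 0, a gap of 1.20 and fed gaps of 1.35, −0.62, 1.32 and 0.77. Its gap was met again at weeks 1 and 12, and without the week 4 pair its fed gap passed (limma adjusted p = 0.019, against 0.243 with all 4 pairs). Rsad2, the antiviral enzyme viperin, had 227 in D2 and 98.3 in B6, a gap of 1.11 that its other 2 probe sets shared (1.06 and 1.11), and a fed gap of 0.36 ± 0.24. Macrophage markers, which can carry interferon responses, had a median gap of 0.04 at week 0 and of −2.57 at week 4, when the interferon median was lowest, and their part in the result was not tested. From bulk RNA, fewer cells of a type and less RNA per cell cannot be told apart.

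**Figure D4:**
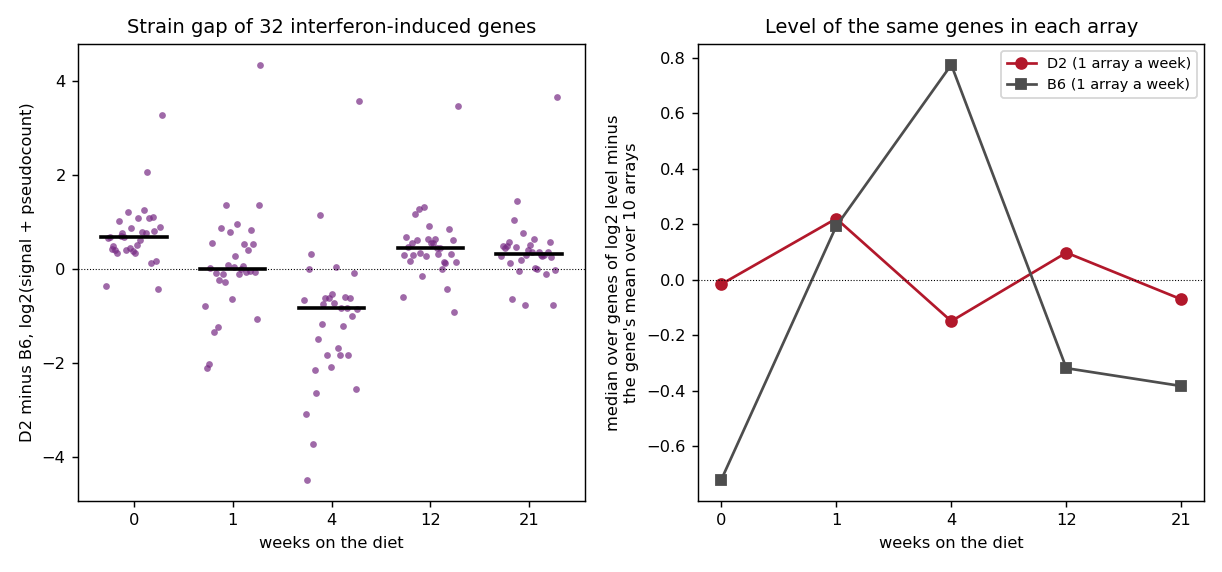
On the left, each point is 1 of 32 interferon-induced genes and the bar is their median D2 minus B6 difference of log2(signal + 13.7) by week. On the right, each point is 1 array and gives the median over these genes of the level relative to the gene's own mean: D2 stayed between −0.15 and 0.22, while B6 was at −0.72 at week 0 and 0.77 at week 4.

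Acute phase genes held the 2 gaps that reversed. Of 33 such genes, 6 were at least 2-fold higher in D2 at week 0 (18.2%, against 1.97% of all genes) and 0 lower. A positive gap was found in 28 (84.8%, against 53.4% of all genes), and the median was 0.13, against 0.03. Saa2, a serum amyloid A secreted by hepatocytes in inflammation, had a signal of 940 in D2 at week 0 and 342, 141, 171 and 293 on the diet, against 149 in B6 at week 0 and 527, 4468, 126 and 571. D2 was highest before the diet, B6 was highest at week 4, and the order of the strains was opposite at weeks 1, 4 and 21. The gaps were 2.55 at week 0 and −0.60, −4.85, 0.40 and −0.93 on the diet, and the fed mean of −1.50 ± 0.77 did not pass (limma adjusted p = 0.290). Saa1, its neighbour on chromosome 7 and close in sequence, had 2.44 at week 0 and −0.72, −3.22, 0.42 and −0.42 on the diet, and its mean of −0.98 placed it just short of reversal.

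Lcn2, lipocalin 2, which withholds iron from bacteria, had a signal of 873 in D2 at week 0 and 289, 78.7, 149 and 200 on the diet, against 374 in B6 at week 0 and 615, 4511, 77.0 and 1147. Its gaps were 1.19 at week 0 and −1.05, −5.61, 0.85 and −2.44 on the diet, with a mean of −2.07 ± 0.91 that did not pass (limma adjusted p = 0.228). Both reversals rested on the week 4 pair: without it 0 of the gaps reversed. The B6 array of week 4 was also the highest of the 10 arrays in macrophage markers, whose median level there was 1.80 above the genes' own means, and their part in the result was not tested. Serpina6, the corticosteroid-binding globulin, had 1.25 at week 0 and fed gaps of −0.25, 0.39, 0.42 and 2.00. Apcs, serum amyloid P, was the member whose gap persisted, with a signal of 3319 in D2 and 985 in B6 at week 0 and gaps of 1.74 at week 0 and 1.63 ± 0.14 on the diet (limma adjusted p = 0.00209).

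**Figure D5:**
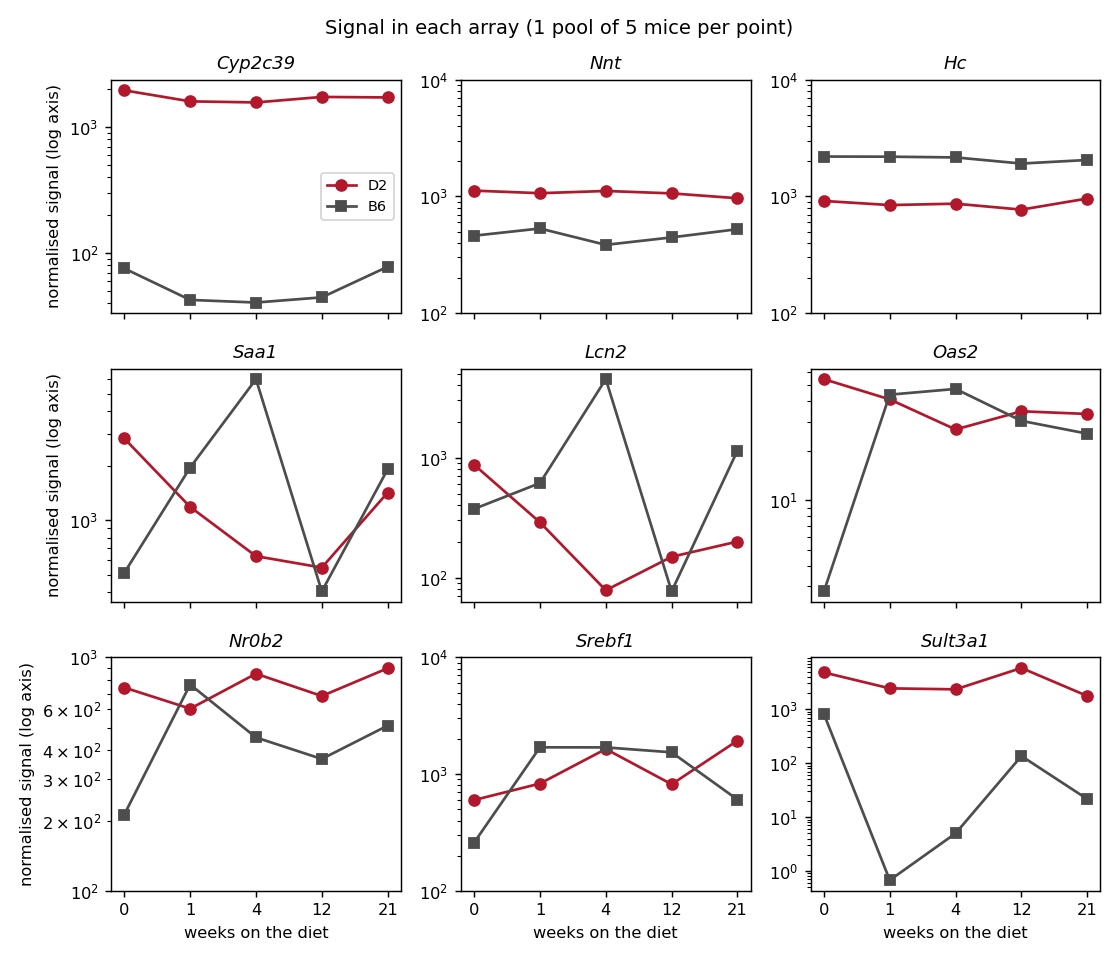
Normalised signal on a log axis by weeks on the diet for 9 genes, with 1 point per array (a pool of 5 mice), D2 as red circles and B6 as grey squares. Cyp2c39, Nnt and Hc keep their order at every week, the lines of Saa1, Lcn2, Oas2, Nr0b2 and Srebf1 cross after week 0, and the gap of Sult3a1 is wider on the diet.

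In lipid and sterol metabolism, gaps at week 0 were found in 4 of 26 genes of fatty acid synthesis (15.4%), 2 of 37 of fatty acid oxidation (5.41%), 2 of 31 of bile acid and sterol transport (6.45%) and 1 of 20 of cholesterol synthesis and uptake (5%), against 3.42% of all genes. Of these gaps, 2 of fatty acid synthesis and 1 of fatty acid oxidation persisted, and the others shrank. Srebf1, the transcription factor of lipogenesis, had a signal of 599 in D2 at week 0 and 829, 1640, 818 and 1935 on the diet, against 259 in B6 at week 0 and 1696, 1693, 1536 and 605. Both strains were lowest at week 0, and the gaps were 1.17 at week 0 and −1.02, −0.05, −0.90 and 1.66 on the diet. Nr0b2, the bile acid-induced repressor SHP, had 743 in D2 at week 0 and 603, 851, 683 and 898 on the diet, against 212 in B6 at week 0 and 765, 454, 367 and 510. Its gap was 1.74 at week 0 and 0.56 ± 0.21 on the diet (limma adjusted p = 0.177), where week 1 had −0.34 and the other 3 weeks 0.80 to 0.89. Without the week 1 pair it passed (adjusted p = 0.0136). Dhcr7, the last enzyme of cholesterol synthesis in one branch, had a gap of 1.15 at week 0 and of −0.64, 0.02, 2.15 and −0.10 on the diet. It was the 1 gene with a gap on the list of cholesterol synthesis and uptake, whose median gap was 0.32 at week 0 and −0.41, 0.08, 1.87 and 0.09 on the diet.

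The gaps of Lpin1 and Cd36 persisted, and that of Scd1 shrank. Lpin1, a phosphatidate phosphatase, had a signal of 447 in D2 and 2307 in B6 at week 0, and 212, 101, 332 and 84.1 in D2 against 518, 794, 2076 and 1228 in B6 on the diet. D2 lay below B6 at each week, with a gap of −2.33 at week 0 and −2.58 ± 0.34 on the diet (limma adjusted p = 0.00868), lost without the week 12 pair (0.0511). Cd36, a fatty acid transporter, had −1.32 at week 0 and −1.24 ± 0.22 on the diet (limma adjusted p = 0.0251), lost without the pair of week 4 (0.0648) or week 21 (0.102), and its other probe sets had −1.47 and −0.28 at week 0. Scd1, the main stearoyl-CoA desaturase, had −1.03 at week 0 and −0.26 ± 0.07 on the diet (limma adjusted p = 0.0779), with signals of 2392 in D2 and 4914 in B6 at week 0 and of 5143 to 6325 in D2 against 6831 to 7215 in B6 on the diet. Such bright signals lie near the top of the scale. None of 26 apolipoprotein and lipoprotein genes and none of 33 genes of amino acid and urea metabolism had a gap, against 3.42% of all genes. Lists of this length can hold 0 gaps at that share.

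Genes of the NRF2 and stress response lay lower in D2 at week 0, with a median gap of −0.36 and a positive gap in 25% of them, against 0.03 and 53.4% over all genes. The median was −0.47, −0.19, 0.11 and 0.01 on the diet. Of 32 such genes, 3 were at least 2-fold lower in D2 (9.38%, against 1.45% of all genes) and 0 higher: Hspb1 and Hspa1b, heat shock proteins whose gaps shrank, and Gpx3, a glutathione peroxidase whose gap persisted (−1.11 at week 0 and −1.24 ± 0.20 on the diet, limma adjusted p = 0.0163, and 0.0712 without the week 12 pair). Hspa1b had 1061 in D2 and 2145 in B6 at week 0, a gap of −1.01, and fed gaps of −1.57, −0.13, 0.97 and 0.70. Of 23 cell cycle genes, 3 had a gap (13%, against 3.42% of all genes). Cdc20 and Ccne1 were higher in D2 and shrank, with second probe sets at −0.01 and −0.60 at week 0, and 1, the ribonucleotide reductase subunit Rrm2, was lower and persisted (−1.39 and −2.19 ± 0.27, limma adjusted p = 0.00708). Onecut1, a liver transcription factor also called HNF6, had 6.09 in D2 and 63.5 in B6 at week 0 and a gap of −1.96, against fed gaps of −0.11, 0.46, 2.01 and 0.62, while its other probe set had −0.24 at week 0.

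Among markers of other liver cells, the 2-fold gaps at week 0 were all lower in D2, while the lists as a whole were mixed. They were found in 2 of 23 macrophage and Kupffer cell markers (8.70%, against 1.45% of all genes), 1 of 15 endothelial, 1 of 21 stellate and matrix and 1 of 4 neutrophil markers, and in 0 of 12 lymphocyte and 0 of 4 cholangiocyte markers. The week 0 difference was positive in 14 of 23 macrophage markers (median 0.04), 2 of 4 neutrophil and 2 of 4 cholangiocyte markers. It was positive in 6 of 15 endothelial, 7 of 21 stellate and matrix and 4 of 12 lymphocyte markers. Col1a1, the stellate and matrix gap, had signals of 3.02 in D2 and 24.8 in B6 at week 0, and its other probe set had −0.22. Csf3r, the neutrophil gap, had 3.36 in D2 and 32.3 in B6. Both macrophage 2-fold gaps persisted. Folr2, a folate receptor of resident macrophages, had a signal of 5.88 in D2 at week 0 and 16.4, 11.1, 5.98 and 11.8 on the diet, against 65.7 in B6 at week 0 and 142, 132, 63.0 and 139. The gap was −2.02 at week 0 and −2.37 ± 0.14 on the diet (limma adjusted p = 0.000376). Cd52, a leukocyte surface peptide, had −1.0 at week 0 and −2.52 ± 0.50 on the diet (limma adjusted p = 0.0342), lost without the pair of week 1, 12 or 21 (up to 0.102). Summed over all 23 markers, the signal was 5128 in D2 and 4623 in B6 at week 0, and 4452 to 6612 in D2 against 4723 to 26142 in B6 on the diet. Lyve1, a hyaluronan receptor of sinusoidal endothelium, had −1.29 and −1.48 ± 0.18 (limma adjusted p = 0.00599).

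The week 0 pools of both strains also differed from the fed pools in clock genes, whose levels depend on the hour of tissue collection. Dbp, a clock output gene, had a signal of 61.8 in D2 at week 0 and 1210, 1095, 1482 and 1284 on the diet, against 46.7 in B6 at week 0 and 229, 795, 984 and 489. Arntl, the activator of the core clock, was at 122 in D2 at week 0 and 9.05 to 30.8 on the diet, against 145 in B6 at week 0 and 14.9 to 46.6. Dbp was higher and Arntl lower in every fed pool of either strain than in its week 0 pool. The gap of Dbp was 0.32 at week 0 and 2.34, 0.46, 0.58 and 1.37 on the diet (limma adjusted p = 0.0664), and that of Arntl −0.23 at week 0 and −0.94 to −0.11 on the diet. Per3, a period gene of the clock, had 0.06 at week 0 and 1.02 ± 0.16 on the diet (limma adjusted p = 0.0162, lost without the pair of week 4 (0.0532) or week 21 (0.0626)). Of 17 clock genes 1 had a week 0 gap (5.88%, against 3.42% of all genes), the deubiquitinase gene Usp2 (−1.20, shrank). Of 19 genes of gluconeogenesis and fasting 0 did, which a list this short can give at that share. The part of clock and fasting genes in the fate of the other gaps was not tested.

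Gaps that persisted were brighter and were more often met by a second probe set. For genes higher in D2, the median signal was 133 in D2 and 26.8 in B6 where the gap persisted, and 63.6 in D2 and 16.0 in B6 where it shrank. For genes lower in D2 the medians were 33.2 in D2 and 159 in B6 where the gap persisted, and 13.2 in D2 and 54.5 in B6 where it shrank. In 59 of the 138 genes higher in D2 whose gap shrank, the B6 signal at week 0 was below the value of 13.7 added to all signals. The same held for 21 of the 78 whose gap persisted. For genes lower in D2, the D2 signal lay below it in 47 of 92 that shrank and 15 of 69 that persisted. Among genes with more than 1 probe set, another probe set also had a 2-fold gap in the same direction for 35 of 59 that persisted (59.3%) and 17 of 76 that shrank (22.4%). Where a gap shrank, the fed level minus the week 0 level was also taken in each strain. For genes higher in D2 its median was −0.29 in D2 and 0.71 in B6, and for genes lower in D2 it was 0.65 in D2 and −0.35 in B6. Such genes were picked for a large week 0 gap and classed by their fed gaps, so opposite shifts follow from that choice. The filter on mean signal can also keep a gene dim at week 0 alone and drop one bright at week 0 alone. The larger shift of the dimmer strain is therefore not read as a result. Genes with a gap that persisted lay next to another gap gene on the chromosome in 29 of 147 cases (19.7%), those that shrank in 21 of 230 (9.13%) and genes without a gap in 6.42%. Pairs of neighbours included Cyp2c38 with Cyp2c39, Cyp3a16 with Cyp3a44, Rsad2 with Cmpk2, and Trim12a with Trim34a.

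The threshold split genes of nearly equal gaps. Just inside it, Tmem181a and Pomk were each higher in D2 by 1.01, and Cd52 and Zfp213 each had −1.0. Just outside, Pacc1 and Ckap2 each had 1.0, and Ctsw and Nrtn each had −1.0 after rounding.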

How the data were processed

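Liver RNA of 10 pools was measured on Affymetrix Mouse Genome 430 2.0 arrays. The authors deposited linear signal intensities per probe set, computed with GCOS, per the submitters' processing notes; its version is not given in the sources used here. Of 45101 probe sets, 64 controls, 932 with several gene symbols and 9160 with none were not used. The arrays were quantile normalised in limma 3.58.1 (R 4.3.3), and values were taken as log2(signal + 13.7). For each of 18193 genes the probe set of highest mean signal was used, and the 11087 genes whose mean lay above the 50th percentile of probe sets (4.73 on the log2 scale) were kept. The fed test was the strain term of a fit with lmFit and eBayes with trend, with week as a block. The fit held all 10 arrays and a term for strain at week 0, which fits the week 0 pair exactly. Estimates and residuals thus came from the 8 fed arrays, leaving 3 residual degrees of freedom, at an adjusted p threshold of 0.05. The mean signal used for the trend was taken over all 10 arrays. The fits were tested on simulated data, where the fed test found 84% of 50 gaps of 2-fold and 96% of 50 gaps of 4-fold among 11087 genes. It also called 10 genes that had no simulated fed gap. Named genes were the 12 largest gaps each way, kept strain loci, up to 5 gap genes of each of 30 lists, and genes whose gap lay nearest 0 or most opposite on the diet; not all are printed. The members and lists were chosen with earlier results of these data known. The number of arrays limits the precision. Figures were drawn with matplotlib 3.10.9.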

Additional observations from a re-analysis of the deposited data

Results flagged for a closer look

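Among the 4 fed gaps of each of 126 named genes, 6 genes (4.76%) had 1 week far from the other 3, which chance gives in about 1 of 20 groups. Cyp2c39, the retinoic acid hydroxylase, had 4.24 at week 21, against 4.84 to 4.90 at the other weeks. The remaining 5 stood apart at week 1. Hao2, the hydroxy acid oxidase, had 0.90, against 2.29 to 2.46. Gm7969, a predicted gene, had −2.82, against −3.44 to −3.38. Nr0b2, the repressor SHP, had −0.34, against 0.80 to 0.89. Ckap2, a spindle protein, had −1.26, against −0.20 to −0.08. Pklr, the liver pyruvate kinase, had −0.81, against 0.26 to 0.35.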

How the results depend on the processing

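The counts depended on how dim signals were handled. With the pseudocount at the 10th percentile, 454 gaps were higher and 376 lower in D2, 613 shrank and 11 reversed. With a floor at the 60th percentile, 114 and 121 genes passed the fed test in the higher and lower direction, 106 week 0 gaps passed it, and 64 genes passed the test of the week 0 gap against the fed gap, 53 of which had all fed gaps at 0 through the floor. Without a filter 353 gaps shrank. With the filter at the 75th percentile there were 94 and 71 gaps, of which 79 persisted, 84 shrank and 98 passed the fed test. At the deposited scale 148 gaps shrank and 180 genes passed the fed test as higher in D2. Without probe sets that may bind several transcripts 1 gap reversed. Called at 4-fold throughout, there were 24 and 19 gaps, of which 28 persisted, 15 shrank and 0 reversed.

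With 1 fed pair left out in turn, 0 to 4 gaps reversed, 126 to 258 genes passed as higher and 126 to 246 as lower in D2. The labels pair the strains only by week, and deviations of the same week correlated at −0.03, 0.01, 0.32 and 0.09. Without the week block, 411 genes passed as higher and 404 as lower, and 180 week 0 gaps passed.

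Some named genes changed direction. With the lower pseudocount Xaf1, then read by another probe set, had −1.08 at week 0 and −1.62 on the diet, and Cdc20 had −0.010 at week 0. With the floor P2ry1 had 0. Arhgef40 had 0.24 as the median of its probe sets and 1.03 without probe sets that may bind several transcripts, where Clcn5 had 0.25, Cdc20 −0.0067 and Ccne1 −0.60. The median interferon gap at week 0 was 0.60 to 0.79 over the alternatives. Apart from the floor and changes of probe set, the cause of these shifts was not tested.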
